A study of Homo sapiens with 4 samples.

Results

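The genes described here are 10 members of the signalling route that runs from the interleukin-6 receptor through STAT3 to the C/EBP factors: IL6R, IL6ST, JAK1, JAK2, STAT3, SOCS3, PIAS3, PIM1, CEBPB and CEBPD. They were chosen as named genes, with every probe set on the array that was annotated to exactly 1 gene and to one of them, which gave 38 probe sets of 44988 and 10 genes of 18132. The list was drawn up with the difference between exosome and PBS arrays already known for these genes, so the values and p-values of the 10 genes in that contrast are descriptions and are no independent evidence. Expression was measured on 4 Affymetrix arrays of LNCaP cells, an androgen-responsive human prostate cancer line grown in RPMI-1640 medium with serum. In 2 arrays the cells had been treated with exosomes (small secreted vesicles) from PC-3, an androgen-independent prostate cancer line that is known to lack the STAT3 gene. In the other 2 arrays the cells had received PBS, a buffer, and the labels give no further agent for either group. Both groups come from 1 cell line, and nothing in the labels says that the arrays of a group are separate cultures. The p-values therefore measure the spread between these arrays, which may be technical. In the fits that spread is estimated in part from other genes. The description of RNA extraction in the labels speaks of brain tissue, whereas every sample label says LNCaP.

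Interleukin-6 and its relatives bind a ligand-specific receptor chain such as IL6R, which then pairs with the shared signalling chain gp130, encoded by IL6ST. Janus kinases bound to gp130 phosphorylate STAT3, which enters the nucleus and switches on genes that include its own gene, the feedback inhibitor SOCS3, the kinase PIM1 and the transcription factors CEBPB and CEBPD. In prostate cancer cells the route is known for its links to survival, inflammation and androgen receptor activity, and LNCaP is known for very low JAK1 expression.

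In these arrays STAT3, IL6ST and CEBPB were higher after PC-3 exosomes, by 1.52-fold, 1.30-fold and 1.24-fold, and passed the threshold of the fit over all genes. CEBPD was 1.16-fold higher in the fit and did not pass it. For the kinases JAK1 and JAK2, the receptor IL6R, the inhibitors SOCS3 and PIAS3 and the kinase PIM1 the fold lay between 0.908 and 1.08, and the 95% interval of each included 1. Thus 3 of the 10 genes were called higher and 0 lower by limma at an adjusted p under 0.05, where 0.700% of all genes were called higher and 0.188% lower. An unadjusted p under 0.05 was reached by 4 higher and 0 lower, against 5.76% and 5.16% of all genes. Both exosome arrays were above both PBS arrays in 4 of the 10 genes and below them in 1, against 17.8% and 21.9% of all genes. Since the list was made with this contrast in view, nothing is read from these shares.

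The sequences just upstream of 4 of these genes are shown, because 3 of them belong to genes called higher and the fourth, SOCS3, to a textbook target of STAT3 that was not called. Each is the 250 bases before the outermost RefSeq start (GRCh38.p14), written 5′ to 3′ on the strand of the gene. They lie at chr17:42388443-42388692 on the minus strand for STAT3, chr5:55994964-55995213 on the minus strand for IL6ST, chr20:50190333-50190582 on the plus strand for CEBPB and chr17:78360926-78361175 on the minus strand for SOCS3. Capitals mark a match to TTCNNGAA, 2 half-sites of the kind that STAT dimers bind with a spacer of 2 bases.
STAT3: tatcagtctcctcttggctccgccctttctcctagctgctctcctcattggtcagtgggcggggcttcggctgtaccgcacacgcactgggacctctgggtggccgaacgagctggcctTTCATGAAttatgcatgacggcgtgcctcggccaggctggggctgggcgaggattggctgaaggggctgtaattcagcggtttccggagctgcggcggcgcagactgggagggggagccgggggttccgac
IL6ST: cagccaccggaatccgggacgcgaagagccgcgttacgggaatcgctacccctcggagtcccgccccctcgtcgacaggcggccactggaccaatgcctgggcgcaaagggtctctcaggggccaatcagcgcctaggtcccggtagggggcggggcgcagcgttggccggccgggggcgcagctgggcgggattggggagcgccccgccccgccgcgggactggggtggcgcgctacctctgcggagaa
CEBPB: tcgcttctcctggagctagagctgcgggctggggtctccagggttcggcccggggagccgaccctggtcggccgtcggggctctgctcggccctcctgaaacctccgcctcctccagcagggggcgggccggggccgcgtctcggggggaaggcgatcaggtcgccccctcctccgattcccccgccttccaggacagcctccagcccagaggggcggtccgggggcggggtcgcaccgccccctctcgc
SOCS3: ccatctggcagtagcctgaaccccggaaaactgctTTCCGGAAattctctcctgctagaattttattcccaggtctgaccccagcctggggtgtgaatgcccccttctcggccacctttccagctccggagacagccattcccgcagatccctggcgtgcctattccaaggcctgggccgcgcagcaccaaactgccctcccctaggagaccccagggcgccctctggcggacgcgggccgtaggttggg
RefSeq windows were read for 9 of the 10 genes, 16 windows in all with alternative starts. Those of CEBPD were left out, so nothing is said of its motifs. The searched motifs, on both strands, were TTCNNNGAA, TTCNNGAA, the C/EBP-type TTGCNNAA and the cyclic AMP response element TGACGTCA, and no match found overlapped another. TTCNNGAA was in 4 of the 16 windows, 1 each for STAT3, SOCS3, IL6R and a downstream JAK1 start, and the other 3 motifs were in none of the 16. In STAT3 the match began 131 bases before the start, in SOCS3 215 bases before it. Of all 35116 such RefSeq windows, 6.62% held TTCNNGAA, 6.57% TTCNNNGAA, 9.05% TTGCNNAA and 1.65% TGACGTCA. A match is a run of letters and not a measured binding site.

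STAT3, the transcription factor at the centre of the route, had 1503 and 1539 intensity units on the exosome arrays, against 1017 and 988 on the PBS arrays, in its brightest probe set (11720756_at). Both exosome arrays were above both PBS arrays, and the arrays within a group lay close together. The means were 1521 ± 24.9 on exosome arrays and 1003 ± 20.8 on PBS arrays (SD, n = 2 each). The log2 fold change was 0.60 (SE 0.048, 95% interval 0.49 to 0.71, limma adjusted p = 0.0011 over all genes). By p-value STAT3 ranked 9 and by log2 fold change 28 among the 18132 genes. The 2 further probe sets of STAT3 were higher as well, and their groups did not overlap. The probe set 11720755_at had 1248 and 1358 with exosomes and 977 and 952 with PBS (log2 0.43, SE 0.059). The probe set 11750674_a_at had 639 and 706 with exosomes and 518 and 414 with PBS (log2 0.53, SE 0.11). Its PBS arrays lay further apart than those of the other probe sets. Arrays of whole cultures cannot tell more cells with a transcript from more of it in each cell.

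Of the 38 probe sets of the 10 genes, 3 were called higher and 0 lower by limma when all 44988 probe sets were tested, where 0.238% were called higher and 0.0200% lower. These 3 were 2 probe sets of STAT3 (adjusted p = 0.0091 and 0.045) and 1 of IL6ST (adjusted p = 0.041). The remaining STAT3 probe set had an adjusted p of 0.154. Both exosome arrays were above both PBS arrays in 17 of the 38 and below them in 2, against 17.2% and 20.5% of all probe sets. Probe sets of the same gene were read on the same arrays and are not independent, so nothing is read from these counts.

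**Figure D1:**
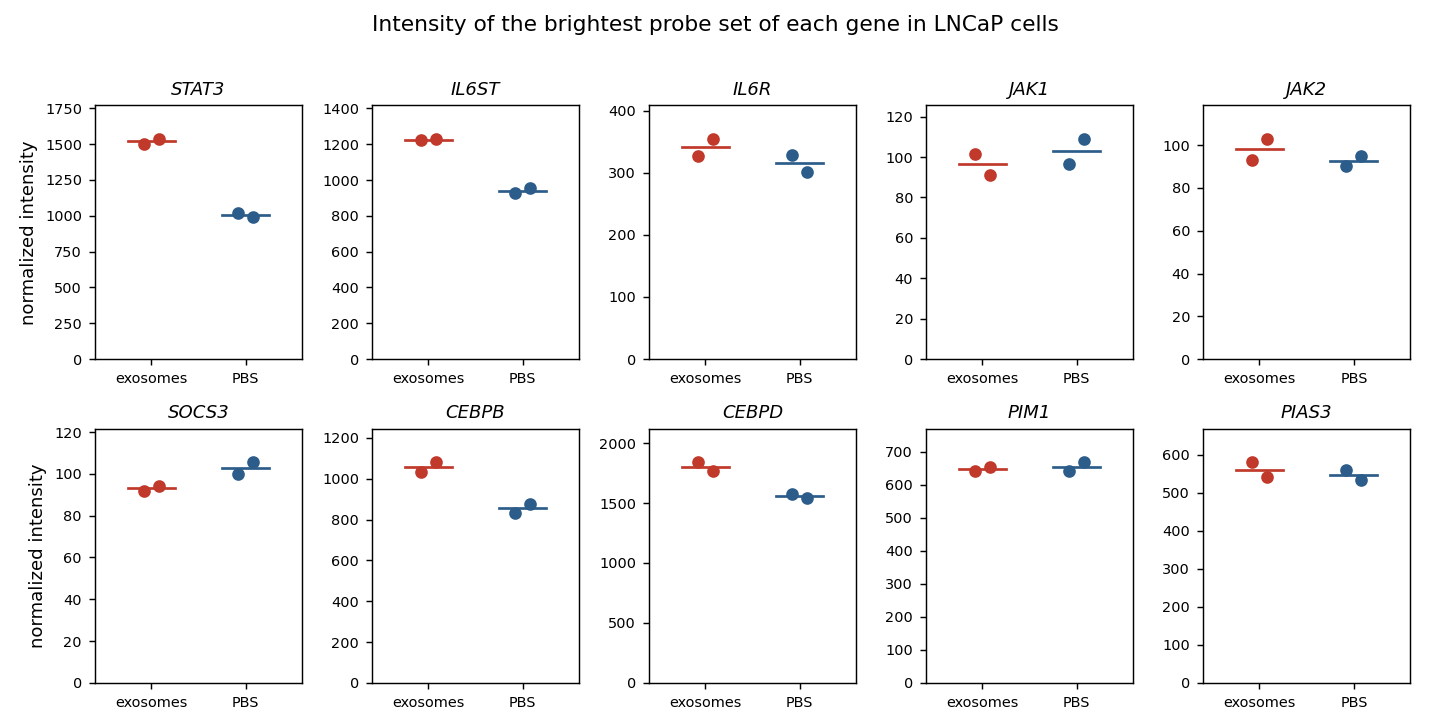
Normalized intensity (linear axes from 0) of the brightest probe set of each of the 10 genes, with a point per array and a line at the mean of the 2 exosome arrays (left in each panel) and of the 2 PBS arrays (right). In STAT3, IL6ST, CEBPB and CEBPD both exosome arrays lie above both PBS arrays, in SOCS3 both lie below, and in the other 5 genes the groups overlap.

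IL6ST encodes gp130, the signal-transducing chain shared by the receptors for interleukin-6, interleukin-11, LIF and oncostatin M. Its brightest probe set (11759037_s_at) had 1221 and 1232 intensity units on the exosome arrays, against 926 and 954 on the PBS arrays. The groups did not overlap, and the exosome arrays nearly coincided. The means were 1226 ± 7.69 on exosome arrays and 940 ± 19.7 on PBS arrays (SD, n = 2 each), a log2 fold change of 0.38 (SE 0.049, 95% interval 0.27 to 0.50, limma adjusted p = 0.010). This gene had 8 probe sets, and the size of the difference varied among them from 0.06 to 0.38 on the log2 scale, all above 0. The second in brightness had 170 and 171 with exosomes and 142 and 129 with PBS (log2 0.34, SE 0.083). The third had 80.0 and 83.3 with exosomes and 76.7 and 57.6 with PBS (log2 0.29, SE 0.13), with the PBS arrays far apart. Its 95% interval, -0.02 to 0.60, included 0. In the remaining 5, with PBS means from 18.9 to 62.6, the log2 fold change was 0.06 to 0.19 and each 95% interval included 0. How much of the values of the third and of these 5 is background is not known. The dimmest 2, with PBS means of 19.2 and 18.9, lie at the medians of the array's background controls (18.7 to 19.5), so their small differences give no bound on the change of the transcript. The average of all 8, which takes in all of these dim probe sets, had a log2 fold change of 0.19 (limma adjusted p = 0.458). Among all probe sets tested, the brightest was the 1 probe set of IL6ST that was called, and the second had an adjusted p of 0.266. Leaving out 1 array also ended the call of IL6ST, whichever of the 4 it was, with log2 fold changes of 0.36 to 0.41 (limma adjusted p from 0.070 to 0.175).

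IL6R, the ligand-binding chain for interleukin-6, had 327 and 355 intensity units with exosomes, against 328 and 301 with PBS, in its brightest probe set. This probe set (11741959_x_at) had a PBS mean of 315, against 82.7, 47.1 and 41.6 in the others. Whether it reads IL6R alone was not tested. One exosome array lay within the range of the PBS arrays, so the groups overlapped. Its log2 fold change was 0.12 (95% interval -0.05 to 0.28). The 4 probe sets of IL6R ran from -0.08 to 0.19, and in 1 of them both exosome arrays, at 93.2 and 95.4, were above both PBS arrays, at 83.2 and 82.1.

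The kinases showed no clear difference. JAK1, which phosphorylates gp130 and STAT3, had 102 and 91.2 intensity units with exosomes, against 96.7 and 109 with PBS. JAK2, a kinase that also serves gp130, had 93.0 and 103 with exosomes, against 90.1 and 95.04 with PBS. In these brightest probe sets of both genes the groups overlapped. The log2 fold changes were -0.09 for JAK1 (95% interval -0.31 to 0.12) and 0.08 for JAK2 (95% interval -0.12 to 0.28). The further probe sets of JAK1 had log2 fold changes of 0.10 and -0.07, and those of JAK2 had 0.16 and 0.05. In the JAK2 probe set with 0.16 both exosome arrays, at 85.5 and 91.1, were above both PBS arrays, at 78.0 and 80.3. In the other further probe sets the groups overlapped. The 23 background controls of the array, which span base compositions, had medians of 18.7 to 19.5 per array and ran from 10.4 to 3750. A single cutoff cannot be drawn from them, and how much of the JAK1 and JAK2 values is background is not known.

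SOCS3, the inhibitor that STAT3 induces and that binds gp130 and Janus kinases, had 2 probe sets. The brighter one had 92.0 and 94.1 intensity units with exosomes, against 99.8 and 106 with PBS, so that both exosome arrays were below both PBS arrays (log2 -0.14, 95% interval -0.32 to 0.05). The dimmer one had 24.9 and 23.2 with exosomes, against 17.8 and 21.5 with PBS, with the order turned round (log2 0.28, SE 0.10, 95% interval 0.05 to 0.52). Neither passed the limma threshold (adjusted p = 0.592 over genes for the brighter, 0.475 over probe sets for the dimmer), and their average gave 0.07. The values of the dimmer one lie near the medians of the array's background controls, 18.7 to 19.5, so it was not shown to be above background and its difference is not read as one of SOCS3. The 95% interval of the brighter one included 0. As for JAK1 and JAK2, how much of the values of the brighter one is background is not known.

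PIAS3, a protein inhibitor of activated STAT3, had 580 and 541 intensity units with exosomes, against 559 and 534 with PBS. The groups overlapped, with a log2 fold change of 0.04 (95% interval -0.10 to 0.18). Its second probe set had 301 and 319 with exosomes and 309 and 299 with PBS, and the 3 dim ones ran from -0.10 to 0.20 on the log2 scale.

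PIM1, a serine/threonine kinase and textbook STAT3 target that promotes survival, had 641 and 654 intensity units with exosomes, against 641 and 668 with PBS. The groups overlapped almost fully, and the log2 fold change was -0.02 (95% interval -0.14 to 0.11). Its 3 further probe sets, with PBS means of 26.7 to 37.6, had log2 fold changes between -0.15 and 0.004.

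CEBPB, a leucine-zipper factor of inflammatory and acute phase genes, had 1034 and 1080 intensity units with exosomes, against 835 and 876 with PBS. The groups did not overlap. The means were 1057 ± 32.4 on exosome arrays and 855 ± 29.5 on PBS arrays (SD, n = 2 each), a log2 fold change of 0.31 (SE 0.054, 95% interval 0.18 to 0.43, limma adjusted p = 0.042). CEBPB had only 1 probe set, of the kind marked as matching more than 1 transcript, so no second reading of the gene was at hand. The brightest probe sets of IL6ST, CEBPD, PIM1 and PIAS3 carry the same mark. Among all probe sets it had an adjusted p of 0.121 and was not called. Leaving out 1 array ended its call over genes, whichever of the 4 it was, with log2 fold changes of 0.27 to 0.34.

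CEBPD, a relative that STAT3 also induces, had 1839 and 1769 intensity units with exosomes, against 1574 and 1545 with PBS. The groups did not overlap, and the log2 fold change was 0.21 (SE 0.046, 95% interval 0.11 to 0.31, limma adjusted p = 0.097). All 5 probe sets of CEBPD gave a difference of nearly the same size, from 0.21 to 0.25, and in each of them both exosome arrays were above both PBS arrays. These probe sets read the same transcripts on the same arrays and are no independent replicates. The second in brightness had 1020 and 938 with exosomes and 838 and 814 with PBS. None of the 5 was past the threshold over all probe sets (limma adjusted p from 0.225 to 0.512). Tested among genes at or above the median level only, CEBPD was past it (adjusted p = 0.041).

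**Figure D2:**
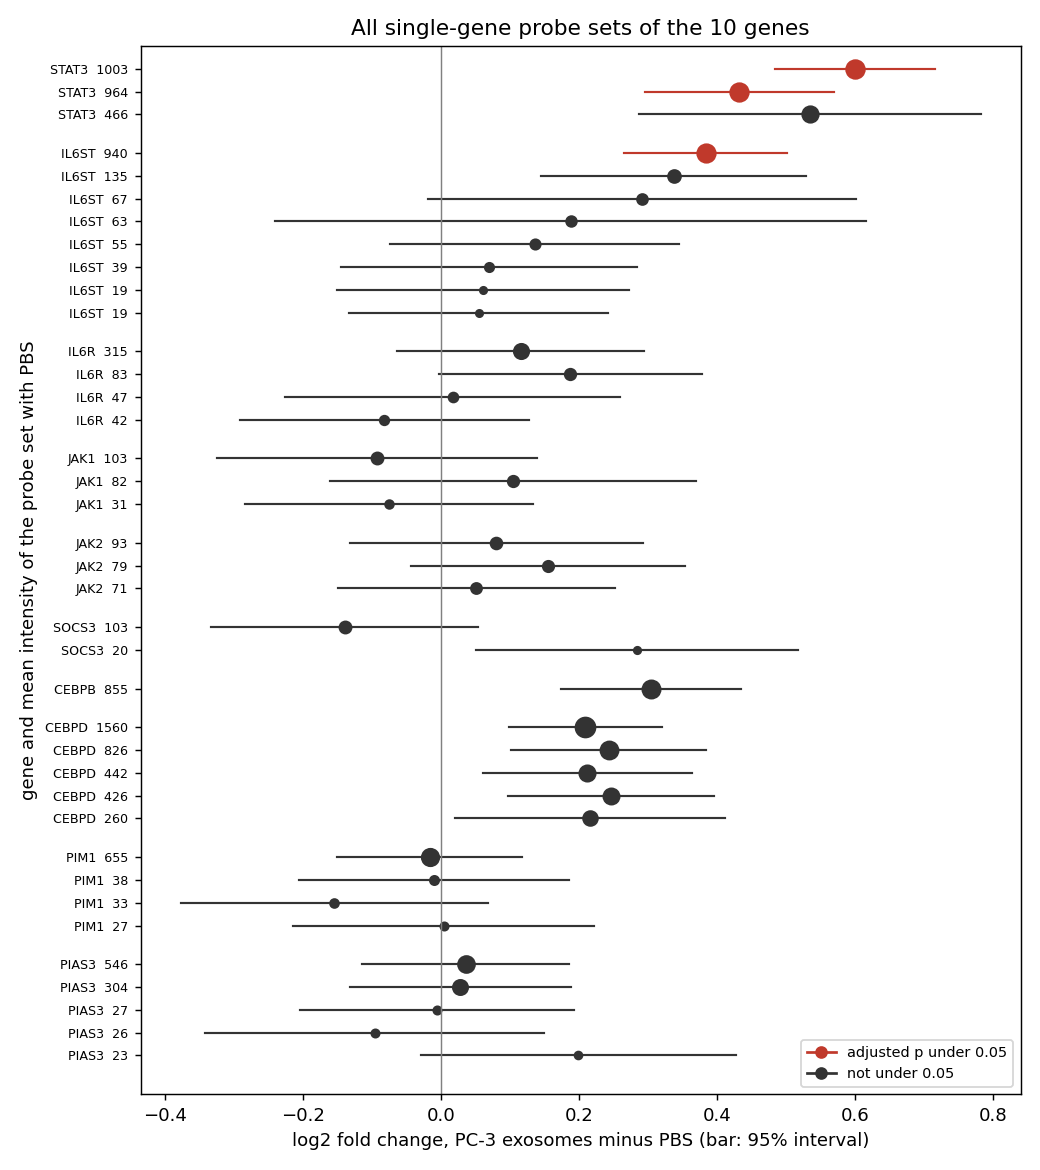
Log2 fold change of PC-3 exosomes over PBS for each of the 38 probe sets (point) with its 95% interval (bar), grouped by gene and sorted from bright to dim, with the mean PBS intensity beside the gene and the point size growing with it. The 3 STAT3 and 5 CEBPD probe sets lie at similar values within each gene, whereas the 8 of IL6ST run from 0.38 in the brightest down to 0.06.

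Over 14 alternative settings STAT3 was called in 13, CEBPB in 7, IL6ST in 6 and CEBPD in 1. With 1 array left out at a time its log2 fold change was 0.58 to 0.62 and it was past the limma threshold in all 4 fits (adjusted p from 0.012 to 0.027). The setting that ended its call was the replicate block, a term for the replicate number, where no gene of the 10 was called and STAT3 had an adjusted p of 0.081 at the same log2 fold change. The spike-ins, control RNAs added to the samples, averaged 6.94 and 7.02 on the log2 scale in exosome samples and 6.90 and 6.77 in PBS samples, so that centring each array on them lowers every log2 fold change by 0.14 and puts the median of all genes at -0.15. On that scale STAT3 had 0.46, IL6ST 0.24, CEBPB 0.17 and CEBPD 0.07, and only STAT3 of the 10 was past the threshold. IL6R, JAK2 and PIAS3, at 0.12, 0.08 and 0.04 as deposited, came to -0.02, -0.06 and -0.10 there. Whether spike-in and RNA were mixed in one proportion on all arrays is not stated, and the part of the spike-ins in these results was not tested.

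**Figure D3:**
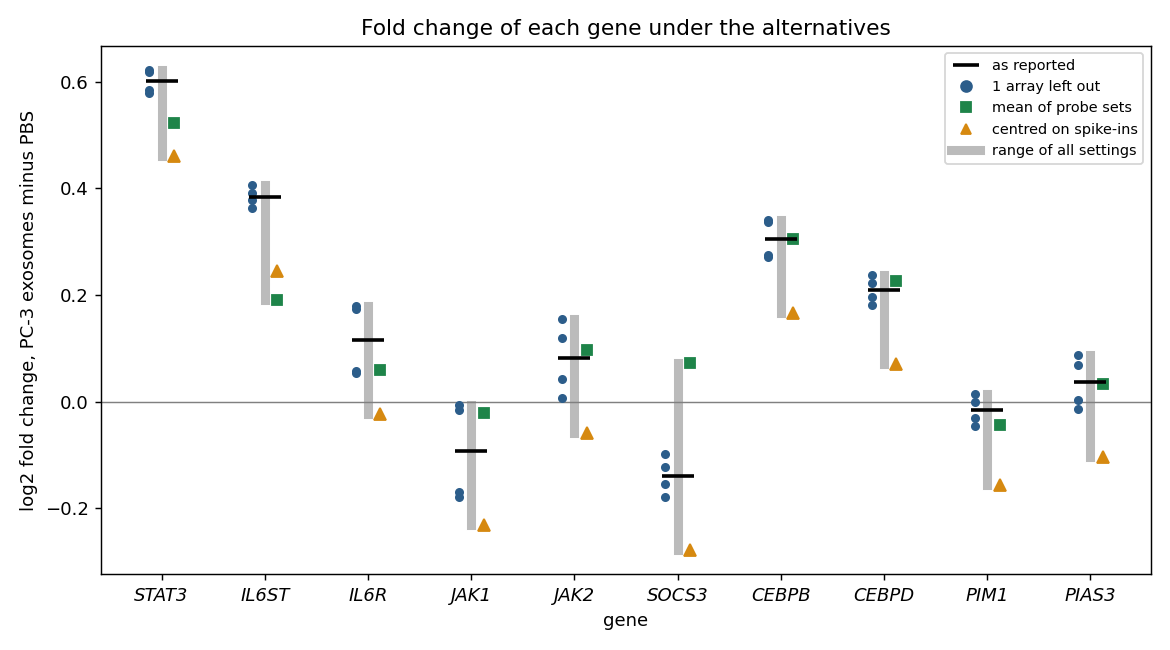
Log2 fold change of PC-3 exosomes over PBS for the 10 genes as reported (black bar), with 1 array left out (circles), with probe sets averaged (squares), with arrays centred on spike-ins (triangles), and the range over all settings tried (grey). STAT3, IL6ST, CEBPB and CEBPD stay above 0 throughout, and the other 6 genes reach or cross 0 in at least 1 setting or, for JAK1, come to -0.01.

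The 5 genes whose 4 values most resembled those of STAT3 were SLC7A11, a cystine transporter, ASS1, argininosuccinate synthase, TSC22D3, a glucocorticoid-induced leucine-zipper protein, ELF3, an epithelial ETS factor, and PARP9, an interferon-responsive ADP-ribosyltransferase family member. Likeness was the Euclidean distance over the 4 arrays between log2 values centred on each gene's mean, among 8980 genes at or above the median level. The distances were 0.046 to 0.085, against 0.226 for IL6ST, 0.307 for CEBPB and 0.396 for CEBPD. SLC7A11, the nearest, had 1786 and 1802 intensity units on the exosome arrays, against 1222 and 1208 on the PBS arrays. This measure ranks genes by the same contrast and carries no test.

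Genes around the route were followed in 7 lists by role, which held 92 genes, 84 of them measured. Over these 84, limma called 3 higher and 0 lower, and 18 higher and 3 lower passed an unadjusted p under 0.05. All genes gave 0.700% called higher and 0.188% called lower, and 5.76% higher and 5.16% lower at that unadjusted threshold. The median log2 fold change of the 84 was 0.02, against -0.01 for all 18132 genes and 0.10 for the 10 genes of the route.

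Ligands of the family did not pass. Of 8 measured, limma called 0 higher and 0 lower, also at an unadjusted p under 0.05, and their median was -0.03. EBI3, a subunit of interleukin-27, had 73.0 and 74.2 with exosomes, against 79.7 and 88.0 with PBS (log2 -0.18, adjusted p = 0.495), and IL31 had 44.8 and 40.1 with exosomes, against 46.7 and 46.7 with PBS (log2 -0.14, adjusted p = 0.642). IL6 itself, chosen here because it gives the route its name, had 118 and 116 with exosomes, against 121 and 121 with PBS (log2 -0.05, 95% interval -0.22 to 0.13). As for JAK1 and JAK2, how much of the IL6, EBI3 and IL31 values is background is not known.

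Among 7 other receptors that use gp130 or its relatives, limma called 0 higher and 0 lower, with 1 and 0 at an unadjusted p under 0.05 and a median of -0.08. OSMR, the oncostatin M receptor that pairs with gp130, had 208 and 187 with exosomes, against 174 and 155 with PBS, and the groups did not overlap (log2 0.26, SE 0.090, adjusted p = 0.314). Both exosome arrays were above both PBS arrays in 17.8% of all genes. IL27RA had 45.9 and 43.6 with exosomes, against 44.9 and 61.5 with PBS (log2 -0.23, adjusted p = 0.590), and how much of this is background is not known.

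Of 6 other Janus kinases and STATs measured, limma called 0 higher and 0 lower, with 0 and 1 at an unadjusted p under 0.05 and a median of -0.02. The values of STAT5B, a STAT of growth hormone and prolactin signalling, were 375 and 407 with exosomes, against 419 and 482 with PBS (log2 -0.20, SE 0.081, adjusted p = 0.407). STAT6, of interleukin-4 signalling, had 204 and 193 with exosomes, against 206 and 250 with PBS (log2 -0.19, adjusted p = 0.517). In both the exosome arrays were below the PBS arrays, as was so for 21.9% of all genes.

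Among 14 other inhibitors of the pathway limma called 0 higher and 0 lower, with 1 and 0 at an unadjusted p under 0.05 and a median of 0.03. SOCS6 had 222 and 232 with exosomes, against 196 and 188 with PBS (log2 0.24, SE 0.072, adjusted p = 0.238), and PIAS4 had 736 and 755 with exosomes, against 781 and 831 with PBS (log2 -0.11, adjusted p = 0.517). Of 7 other genes with a C/EBP or PIM name 0 were called higher and 0 lower by limma. At an unadjusted p under 0.05 there were 2 and 0, and the median was 0.07. DDIT3, the C/EBP-homologous stress factor CHOP, had 480 and 446 with exosomes, against 375 and 335 with PBS (log2 0.39, SE 0.075, adjusted p = 0.058). CEBPG, a short C/EBP that pairs with the other family members, had 1381 and 1375 with exosomes, against 1265 and 1136 with PBS (log2 0.20, SE 0.059, adjusted p = 0.224).

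In the list of textbook STAT3 targets 0 of 20 were called higher and 0 lower by limma, against 0.700% and 0.188% of all genes. At an unadjusted p under 0.05, 8 higher and 2 lower passed, against 5.76% and 5.16% of all genes. The median was 0.05. As the list was chosen with earlier results of these data known, nothing is read from these counts. FOSL2, an AP-1 factor, had 292 and 278 with exosomes, against 225 and 210 with PBS (log2 0.39, SE 0.072, adjusted p = 0.0503), just outside the threshold. BCL3, an I-kappa-B family protein, had 278 and 275 with exosomes, against 218 and 213 with PBS (log2 0.36, SE 0.068, adjusted p = 0.054).

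Acute phase genes, which the liver secretes in inflammation and which STAT3 and C/EBP factors are known to drive there, held all 3 calls. Of 23 measured, 3 rose and 0 fell by limma, against 0.700% and 0.188% of all genes. At an unadjusted p under 0.05, 7 higher and 0 lower passed, against 5.76% and 5.16% of all genes. The median was 0.03. LCN2, a siderophore-binding protein, had 345 and 358 with exosomes, against 178 and 179 with PBS (log2 0.97, SE 0.068, adjusted p = 4.0e-04). CFB, complement factor B, had 175 and 184 with exosomes, against 99.1 and 87.2 with PBS (log2 0.94, SE 0.089, adjusted p = 0.0020). SERPINA3, alpha-1-antichymotrypsin, had 206 and 199 with exosomes, against 103 and 110 with PBS (log2 0.92, SE 0.079, adjusted p = 0.0012). In each the groups did not overlap. Rises of these genes were known when the list was written, and 20 of the 23 acute phase genes measured were not called.

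**Figure D4:**
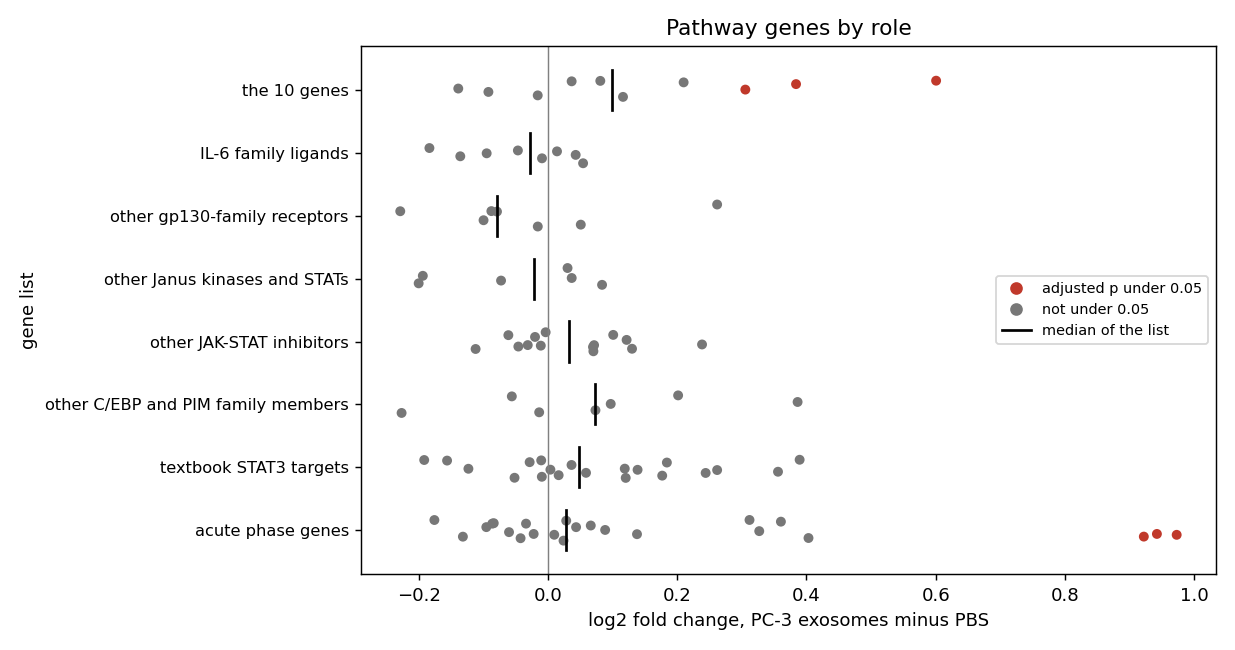
Log2 fold change of PC-3 exosomes over PBS for the 10 genes and for the measured genes of each list, with a point per gene (red: adjusted p under 0.05) and a black line at the median of the list. The medians of the 7 lists lie between -0.08 and 0.07, and the red points are STAT3, IL6ST and CEBPB in the top row and LCN2, CFB and SERPINA3 among the acute phase genes.

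The 4 arrays were alike as a whole. Their median intensities were 110.8 to 112.4. The ratio of 3' to 5' signal, a sign of RNA integrity, was for beta-actin 6.82 and 5.39 on the exosome arrays, against 5.74 and 7.17 on the PBS arrays. For GAPDH it was 1.35 and 1.34 on the exosome arrays, against 1.32 and 1.33 on the PBS arrays. The beta-actin ratio was high on all 4 arrays, and whether this affected probe sets far from the 3' end was not tested. Of the markers of luminal prostate cells 7 of 10 were measured, KLK3 (PSA) at 13847 to 14526 among them, and limma called 0 of 7. In the list for PC-3 cells 0 of 8 were called, with summed intensities of 902 and 948 on exosome arrays and 976 and 945 on PBS arrays. For brain, 9 of 10 markers were measured and 0 called, the sums being 1782 and 1802 with exosomes and 1631 and 1730 with PBS, and for leukocytes 0 of 4 were called. All genes gave 0.700% called higher and 0.188% lower, so nothing is read from 0 calls in lists this short. Among luminal markers both exosome arrays were above both PBS arrays in TRPM8 (log2 0.31) and TMPRSS2 (log2 0.14), and below in KLK2 and HOXB13. Among brain markers they were above in MBP (log2 0.18), GFAP and AQP4, and below in SLC17A7. All genes gave 17.8% above and 21.9% below.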

How the data were processed

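Expression of LNCaP cells was measured on 4 Affymetrix arrays, 2 for cells given PC-3 exosomes and 2 for PBS, with groups as the sample labels state. The deposited values are normalized intensities on a linear scale, 1 per probe set and array. MAS5 and RMA are named, without role or version, per the submitters' processing notes, and the genome build is not given in the sources used here. No further normalization was applied. Of 49395 probe sets 44988 named 1 gene, 1832 several, 2473 none and 102 were controls, and only the first kind was tested.

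A pseudocount of 1 was added before log2, and folds include it. Each of 18132 genes was represented by its brightest probe set, by the mean over all arrays. Genes, and separately all 44988 probe sets, were fitted with limma 3.58.1 in R 4.3.3 (lmFit, eBayes with a trend), exosomes minus PBS, two-sided, with Benjamini-Hochberg adjustment over all features and a threshold of 0.05. Precision is limited by the number of arrays, which left 2 residual degrees of freedom. The eBayes step added 6.99 prior degrees of freedom for genes and 5.65 for probe sets, estimated over all features. Each SE thus rests largely on other features. An exact permutation test of 2 against 2 cannot give a p below 0.333. Levels of probe sets served to choose and order them within a gene, and were not compared between genes. The fits were tested on simulated data.

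The members and the lists were chosen with earlier results of these data known. All 10 members are named. From each list, up to 3 genes past the threshold with the largest change are named, and where none passed, the 2 of smallest p. Alternatives were a pseudocount of 16, quantile normalization, centring on the median or on 24 poly-A spike-in probe sets, filters at the median or the 30th percentile, averaged probe sets, eBayes without a trend or robust, a replicate block, and omission of each array in turn. List genes without a single-gene probe set were not analysed here. Promoter windows are from RefSeq. Figures were drawn with matplotlib 3.10.9.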

Additional observations from a re-analysis of the deposited data

How the results depend on the processing

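As deposited, 161 genes and 116 probe sets were called, 3 of the 10 genes, 3 of their 38 probe sets and 3 genes of the pathway lists. Quantile normalization gave 249 genes, 201 probe sets and 6 list genes. Centring on the median gave 7 list genes, the filter at the 30th percentile 7 and robust eBayes 5. Testing features at or above the median level gave 297 genes, 219 probe sets and 6 list genes. Centring on spike-ins gave 386 genes, 871 probe sets, 6 list genes and 1 of the 10 genes, and 15.5% of the called genes were higher in place of 78.9%. Without a trend there were 21 genes, 10 probe sets, 1 of the 10 genes (STAT3) and 0 of their probe sets. With a replicate block, which costs 1 residual degree of freedom, there were 2 genes, 0 probe sets, 0 of the 10 genes, 0 of their probe sets and 0 list genes, and STAT3 had an adjusted p of 0.081. The replicate numbers are not explained in the labels, and the differences between replicates 1 and 2 of both groups correlated at -0.04 across genes. Leaving out 1 array gave 33 to 47 genes, 0 to 4 probe sets, 1 to 1 of the 10 genes (STAT3 each time) and 0 to 0 of their probe sets. With 1 array left out the lone array is assumed to vary like the other group. The cause of these changes was not tested beyond fewer arrays or features.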

Other observations

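Further textbook STAT3 targets and acute phase genes, picked here after their values were seen, had differences that did not pass the limma threshold over all genes. VEGFA, the vascular growth factor, had 1106 and 1125 intensity units with exosomes, against 931 and 953 with PBS (log2 0.24, adjusted p = 0.069). BCL6, a transcriptional repressor, had 1421 and 1461 with exosomes, against 1282 and 1256 with PBS (log2 0.18, adjusted p = 0.161). LRG1, a secreted leucine-rich glycoprotein, had 282 and 305 with exosomes, against 229 and 243 with PBS (log2 0.31, adjusted p = 0.125). BIRC5, the apoptosis inhibitor survivin, which is also a mitotic protein, had 1918 and 1902 with exosomes, against 2253 and 2112 with PBS (log2 -0.19, adjusted p = 0.143). In each of the 4 genes the groups did not overlap, as was so for 17.8% of all genes with the exosome arrays above and 21.9% with them below.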
